A study of Homo sapiens with 8 samples.

Results

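The 10 genes described here are regulators of the integrated stress response, the programme by which cells answer amino acid shortage, misfolded protein, haem shortage or viral RNA. They were taken by symbol from the table of gene counts, and all 10 were found among its 37441 genes and passed the filter of at least 10 counts in total, which kept 18203 genes. They comprise the transcription factors ATF4, DDIT3 (CHOP), ATF3, ATF5 and CEBPB, the feedback regulators TRIB3 and PPP1R15A (GADD34), the mTORC1 inhibitors DDIT4 (REDD1) and SESN2 (Sestrin 2), and the glutathione-degrading enzyme CHAC1. The data came from 8 RNA-seq libraries of 2 non-small cell lung cancer cell lines. NCI-H1581 and NCI-H1703 were sensitive to CPL304110, an inhibitor of fibroblast growth factor receptors (FGFR). NCI-H1581R and NCI-H1703R were resistant variants of the same lines, selected in CPL304110 that was raised from 50 nM to 2.5 µM for NCI-H1581R and to 5 µM for NCI-H1703R over 4 to 6 months. Each variant was 1 resistant population of its line, and there were 2 replicates per group. Copy number was not analysed here, and its part in the RNA differences was not tested. NCI-H1581 cells were kept in DMEM/F12 and NCI-H1703 cells in RPMI 1640, both with serum, so line and medium cannot be told apart in comparisons between lines. The cells were collected 24 h after a change of medium, and whether this medium held the inhibitor is not given in the sources used here.

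In this response, kinases that sense different stresses phosphorylate the initiation factor eIF2, which lowers protein synthesis in general while the mRNA of ATF4 is translated better. ATF4 then pairs with C/EBP proteins and other bZIP factors, binds composite elements in promoters and activates genes for amino acid supply, tRNA charging and redox balance together with DDIT3, ATF3, TRIB3, SESN2 and CHAC1. PPP1R15A brings a phosphatase back to eIF2 and closes the loop. Because ATF4 itself is controlled largely at translation, its mRNA level and its protein level need not move together, and only RNA was measured here.

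In GENCODE v44 for GRCh38, the transcription factor genes are ATF4 at chr22:39519695-39522683 (plus strand), DDIT3 at chr12:57516588-57521737 (minus strand), ATF3 at chr1:212565334-212620777 (plus strand), ATF5 at chr19:49928702-49933935 (plus strand) and CEBPB at chr20:50190830-50192668 (plus strand). The genes of the other regulators are TRIB3 at chr20:362835-397559 (plus strand), PPP1R15A at chr19:48872212-48876059 (plus strand), DDIT4 at chr10:72273919-72276036 (plus strand), SESN2 at chr1:28259518-28282491 (plus strand) and CHAC1 at chr15:40952962-40956512 (plus strand). All 10 are protein coding, and the counts of their transcripts were summed per gene by the authors.

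The ATF4-C/EBP composite element was searched as TGATGNAA on either strand (TTNCATCA on the other) in the 500 bases before each RefSeq start site of GRCh38.p14. It was found in 5 of the 10 regulators, SESN2, ATF3, DDIT3, CHAC1 and TRIB3, and in 7.49% of 27305 genes (6.19% of 35116 promoters). These 5 are the regulators named above as activated by ATF4, so the shares are a description and not a test. The cAMP response element TGACGTCA, which reads the same on both strands and whose letters cannot also match the first motif, was found in 2 of the 10, ATF3 and PPP1R15A, and in 2.40% of genes (1.98% of promoters). In ATF3 the motifs lay before different RefSeq starts on chromosome 1. The composite element preceded the start at 212565407. The cAMP response element, not printed below, began 497 bases before the start at 212615018. The stretches below are shown because they carry these matches in genes whose RNA is described next. Each is printed 5′ to 3′ on the strand of its gene, with the matching letters in capitals.
SESN2, chr1:28259211-28259240, plus strand, match from 296 bases before the start: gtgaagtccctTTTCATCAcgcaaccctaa
ATF3, chr1:212565205-212565234, plus strand, match from 191 bases before the start: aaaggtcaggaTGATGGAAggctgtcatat
DDIT3, chr12:57520802-57520831, minus strand, match from 306 bases before a RefSeq start: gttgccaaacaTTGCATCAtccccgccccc
CHAC1, chr15:40953251-40953280, plus strand, match from 209 bases before the start: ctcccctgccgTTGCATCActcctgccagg
TRIB3, chr20:380881-380910, plus strand, match from 403 bases before the most upstream RefSeq start: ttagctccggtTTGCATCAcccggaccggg
PPP1R15A, chr19:48872352-48872381, plus strand, match to the cAMP response element from 58 bases before the start: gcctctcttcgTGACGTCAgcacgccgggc

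The TRIB3 stretch was present 3 times in the window with identical letters, starting at 380881, 380914 and 380947 on chromosome 20. The stretches of SESN2 and ATF3 lay upstream of the GENCODE gene, and those of DDIT3, CHAC1, TRIB3 and PPP1R15A lay inside the GENCODE gene span, which begins further upstream than the RefSeq start. Those of CHAC1, TRIB3 and PPP1R15A overlapped annotated exons of their own genes, and that of DDIT3 was intronic and also within the span of MBD6. The same letters TTGCATCA were thus matched in DDIT3, CHAC1 and TRIB3, while the matches in SESN2 and ATF3 differed from it at the free position N. No window of ATF4, ATF5, CEBPB or DDIT4 held either motif, which says only that these letters were not found there. A match in letters is a description of the sequence, and binding was not measured.

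The libraries held 33800389 to 40031710 counts each, and the counts of the 10 genes ranged from 51 for ATF3 in a library of NCI-H1581 to 21132 for ATF4 in a library of NCI-H1581R, so none was limited by a count near 0. Replicates within a group differed by more than counting error in all 4 groups, most in NCI-H1581R (chi-square per degree of freedom 96.8 against 23.3 to 31.9 in the other groups). The mesenchymal marker VIM was at 2634 to 6711 CPM (counts scaled to library size with TMM factors) in every library, PTPRC of blood cells and PECAM1 of endothelium were at no more than 0.399 and 0.449 CPM, and of the epithelial markers, KRT8 was at 2.02 to 7.27 CPM and EPCAM at 0.0792 to 15.9 CPM. KRT18 moved with resistance in NCI-H1703, with 64.3 and 65.4 CPM in NCI-H1703 against 2.88 and 2.48 CPM in NCI-H1703R, and its part in the results was not tested. In bulk RNA a change in the share of cells that express a gene and a change in RNA per cell cannot be told apart.

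**Figure D1:**
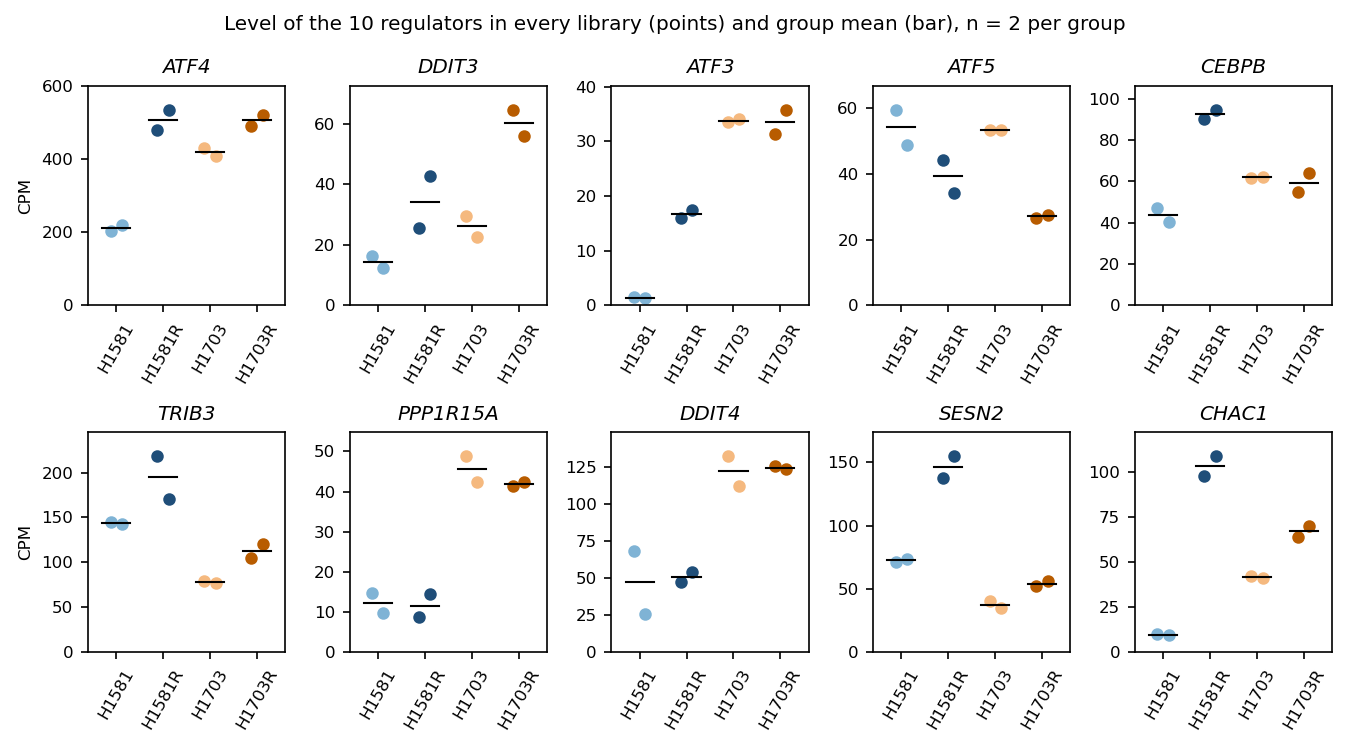
Level of each of the 10 regulators in CPM (vertical axis, from 0) in the 4 groups (horizontal axis), where points are libraries and bars are means of 2 replicates. CHAC1 and ATF3 stand far lower in NCI-H1581 than in the other 3 groups, while DDIT3 is higher in each resistant variant than in its sensitive line.

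In NCI-H1581R, 6 of the 10 regulators rose relative to NCI-H1581, and 4 did not pass the test. ATF3 rose 11.7-fold and CHAC1 10.9-fold, and ATF4, DDIT3, CEBPB and SESN2 rose by 2.04-fold to 2.42-fold. The test was edgeR's quasi-likelihood test over all 18203 genes, and a gene was called at a Benjamini-Hochberg adjusted p under 0.1. Of all genes, 7.63% were called higher and 7.44% lower in this comparison, against 6 and 0 of the 10 (0 lower also at an unadjusted p under 0.05 and with DESeq2). The median log2 fold change was 1.06 over the 10 and 0.04 over all genes. The 10 were chosen with earlier results of these data known, which limits every comparison of their share with that of all genes.

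CHAC1, which cleaves glutathione and lowers its pool, was at 9.76 and 9.36 CPM in NCI-H1581 and at 97.8 and 109 CPM in NCI-H1581R. ATF3, a bZIP factor induced by many stresses, was at 1.51 and 1.37 CPM in NCI-H1581 and at 16.0 and 17.5 CPM in NCI-H1581R. Neither gene overlapped between the variants, and for both the distance between variants was far wider than that between replicates. The log2 fold change was 3.45 (SE 0.18, adjusted p = 0.000127, edgeR) for CHAC1 and 3.55 (SE 0.27, adjusted p = 0.000526, edgeR) for ATF3.

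ATF4, the central factor of the response, was at 203 and 221 CPM in NCI-H1581 and at 481 and 537 CPM in NCI-H1581R. CEBPB, a C/EBP factor that can pair with ATF4, was at 46.9 and 40.4 CPM against 90.2 and 94.7 CPM. SESN2, which senses leucine and restrains mTORC1, was at 71.1 and 73.8 CPM against 138 and 155 CPM. In each of these genes both resistant libraries were above both sensitive ones. The log2 fold changes were 1.27 for ATF4 (SE 0.18, adjusted p = 0.00662, edgeR), 1.09 for CEBPB (SE 0.16, adjusted p = 0.00894, edgeR) and 1.03 for SESN2 (SE 0.16, adjusted p = 0.0114, edgeR).

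DDIT3, the factor that links prolonged stress to cell death genes, was at 16.4 and 12.3 CPM in NCI-H1581 and at 25.7 and 42.7 CPM in NCI-H1581R. The groups did not overlap, but the replicates of NCI-H1581R differed 1.66-fold, and the log2 fold change of 1.27 had a wider error (SE 0.29, adjusted p = 0.0439, edgeR). It became 0.84 without replicate 2 of NCI-H1581R and 1.60 without replicate 1, still called in both. DDIT3 shares 355 of its exon bases (27.2%) with MARS1 and 58 with MBD6, both on the opposite strand, and the strand setting of the counting is not given in the sources used here. MARS1, the methionyl-tRNA synthetase gene, had 8605 to 18858 counts per library, and its own log2 fold change was 0.75 (SE 0.17, adjusted p = 0.0386, edgeR) in this comparison. The part of MARS1 reads in the DDIT3 value was not tested.

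The other 4 regulators did not pass. TRIB3, a pseudokinase that inhibits ATF4 and AKT, was at 145 and 142 CPM in NCI-H1581 and at 219 and 171 CPM in the resistant variant (log2 fold change 0.45, adjusted p = 0.192, edgeR). ATF5 was at 59.5 and 48.7 CPM against 44.1 and 34.3 CPM (log2 fold change -0.45, adjusted p = 0.223, edgeR). Neither gene overlapped between the variants, TRIB3 being higher and ATF5 lower in both resistant libraries. The share of all genes that separate in this way was not counted. With so few libraries the separation is therefore a description and no evidence of a change. The same limit applies wherever libraries are said not to overlap. PPP1R15A, at 14.6 and 9.81 CPM against 8.80 and 14.4 CPM, overlapped between the variants. DDIT4, at 68.5 and 25.7 CPM against 47.2 and 54.4 CPM, overlapped too, with both resistant libraries between the sensitive ones. For DDIT4 the replicates of NCI-H1581 differed 2.66-fold, which exceeds any difference that could be read between the variants (log2 fold change 0.13, SE 0.41).

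With either replicate of NCI-H1581 left out, only ATF3 and CHAC1 of the 10 stayed called, and ATF4, DDIT3, CEBPB and SESN2 had adjusted p from 0.114 to 0.298 with the same direction. In those fits the lone library was assumed to vary like the other group, and the calls over all genes fell to 1160 and 1122 from 2743.

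In NCI-H1703R, 4 of the 10 regulators rose relative to NCI-H1703, 1 fell and 5 did not pass. DDIT3 rose 2.36-fold, CHAC1 1.64-fold, SESN2 1.48-fold and TRIB3 1.47-fold, and ATF5 was 1.92-fold lower. Over all genes 7.06% were called higher and 7.67% lower. The median log2 fold change of the 10 was 0.18, and that of all genes was 0.

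DDIT3 was at 29.7 and 22.5 CPM in NCI-H1703 and at 64.7 and 55.8 CPM in NCI-H1703R (log2 fold change 1.24, SE 0.16, adjusted p = 0.00967, edgeR). Here MARS1 did not pass (log2 fold change 0.27, adjusted p = 0.141, edgeR). CHAC1 was at 42.5 and 40.9 CPM against 64.1 and 70.0 CPM (log2 fold change 0.72, SE 0.09, adjusted p = 0.0106, edgeR). In both genes the resistant libraries lay above the sensitive ones.

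SESN2 was at 40.1 and 34.4 CPM in NCI-H1703 and at 51.8 and 56.3 CPM in NCI-H1703R (log2 fold change 0.57, SE 0.11, adjusted p = 0.0329, edgeR). TRIB3 was at 79.4 and 77.5 CPM against 104 and 121 CPM (log2 fold change 0.55, SE 0.10, adjusted p = 0.0287, edgeR). Neither gene overlapped between the variants.

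ATF5, a bZIP factor whose translation is controlled like that of ATF4, was the member that fell. It was at 53.1 and 53.3 CPM in NCI-H1703 and at 26.7 and 27.5 CPM in NCI-H1703R (log2 fold change -0.94, SE 0.09, adjusted p = 0.00444, edgeR). ATF5 shares 565 of its exon bases (19.5%) with NUP62, a nuclear pore gene on the opposite strand. NUP62 fell as well, with 6582 and 5706 counts in NCI-H1703 and 2723 and 3067 in the resistant variant (log2 fold change -1.16, SE 0.09, adjusted p = 0.00234, edgeR). NUP62 held more counts than ATF5 in every library, and its part in the ATF5 value was not tested.

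ATF4 was at 430 and 410 CPM in NCI-H1703 and at 492 and 523 CPM in NCI-H1703R, without overlap. Its log2 fold change of 0.30 (SE 0.09) did not pass (adjusted p = 0.109, edgeR), whereas it passed when the replicate number was fitted as a block (adjusted p = 0.00482, edgeR) and with DESeq2 (adjusted p = 0.0108). ATF3 was at 33.5 and 34.1 CPM against 31.3 and 35.8 CPM, and CEBPB at 61.7 and 62.1 CPM against 54.7 and 63.9 CPM. PPP1R15A was at 48.9 and 42.3 CPM against 41.4 and 42.4 CPM, and DDIT4 at 133 and 112 CPM against 126 and 124 CPM. These last 4 genes overlapped between the variants, with log2 fold changes from -0.09 to 0.06 and SEs near 0.10.

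Without replicate 1 of NCI-H1703, DDIT3 and ATF5 stayed called, and without replicate 2 no member did (adjusted p from 0.107 to 0.238 for the 5 genes, edgeR). The calls over all genes fell from 2683 to 293 and 274 in these fits. SESN2 also lost its call without replicate 2 of NCI-H1703R (adjusted p = 0.125, edgeR).

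**Figure D2:**
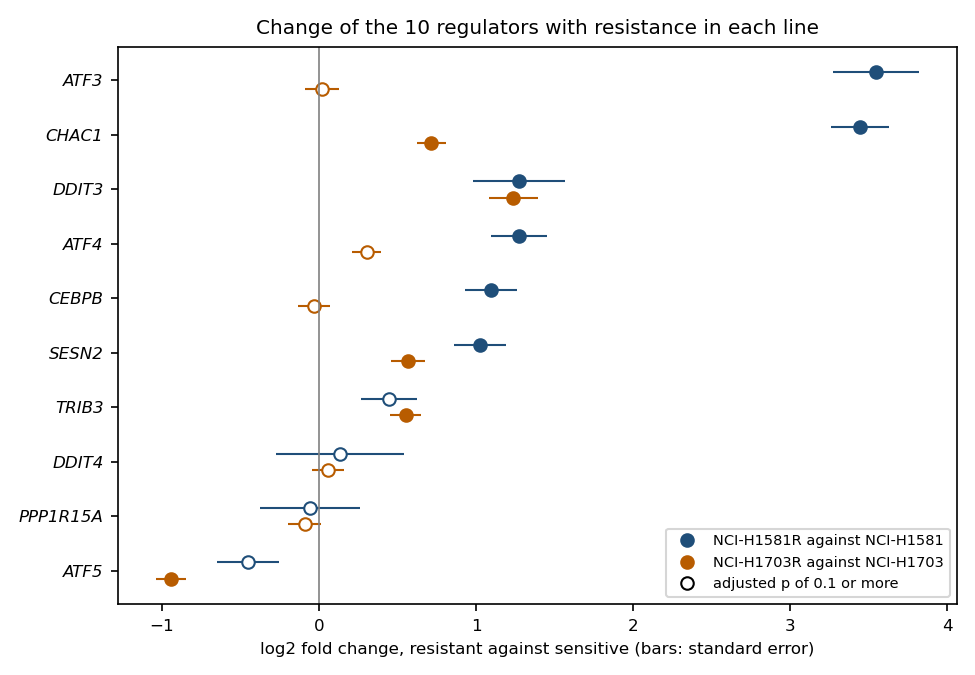
Log2 fold change of each regulator, resistant against sensitive (horizontal axis), in the NCI-H1581 and NCI-H1703 lines. Points are estimates from 2 against 2 libraries, bars are standard errors, and open points had an adjusted p of 0.1 or more. ATF3 reaches 3.55 in the first line and 0.02 in the second, and CHAC1 3.45 and 0.72, whereas DDIT3 has 1.27 and 1.24.

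The changes in the 2 lines come from separate libraries. DDIT3, SESN2 and CHAC1 were called higher in both lines, which is 3 of the 10 against 0.692% of all genes tested, while 0.95% of all genes and none of the 10 were called lower in both. Because the 10 were chosen with earlier results known, these shares are a description and not a test. The losses of calls given above for fits without a library apply here too, as do the exon bases that DDIT3 shares with MARS1. A further 3 were called in NCI-H1581R only (ATF4, ATF3 and CEBPB), 2 in NCI-H1703R only (TRIB3 and ATF5), and PPP1R15A and DDIT4 in neither. A call in a single line does not show that the lines differed. TRIB3 had log2 fold changes of 0.45 in NCI-H1581R and 0.55 in NCI-H1703R, and ATF5 had -0.45 and -0.94. ATF4 had 0.30 in NCI-H1703R, where it passed with DESeq2 (adjusted p = 0.0108) but not with edgeR. No member was called in opposite directions.

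Whether the change with resistance differed between the lines was tested as an interaction in a fit of all 8 libraries. The change was smaller in NCI-H1703 than in NCI-H1581 for 4 of the 10, ATF3, CHAC1, CEBPB and ATF4, against 8.47% of all genes with a lower and 6.93% with a higher change in NCI-H1703. The difference on the log2 scale was -3.55 for ATF3 (SE 0.24, adjusted p = 8.31e-05, edgeR) and -2.75 for CHAC1 (SE 0.18, adjusted p = 6.22e-05, edgeR). It was -1.15 for CEBPB (SE 0.19, adjusted p = 0.00626, edgeR) and -0.99 for ATF4 (SE 0.18, adjusted p = 0.00947, edgeR). ATF5 had -0.51 (adjusted p = 0.221, edgeR, and 0.0847 in the fit blocked by replicate number) and SESN2 -0.48 (adjusted p = 0.153, edgeR). DDIT3, TRIB3, PPP1R15A and DDIT4 had differences between -0.09 and 0.08, with SEs from 0.21 for TRIB3 to 0.51 for DDIT4, so a difference of a similar size to those errors could not have been seen.

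Between the sensitive lines, 7 of the 10 were higher in NCI-H1703 than in NCI-H1581, 2 were lower and ATF5 did not pass, against 32.5% of all genes higher and 30.4% lower. ATF3 was 23.4-fold, CHAC1 4.36-fold, PPP1R15A 3.77-fold and DDIT4 2.63-fold higher in NCI-H1703. ATF4, DDIT3 and CEBPB were 1.98-fold, 1.84-fold and 1.42-fold higher. SESN2 and TRIB3 were 1.94-fold and 1.83-fold lower. The DDIT4 value depended on which replicate of NCI-H1581 was used, since its log2 difference of 1.40 became 2.25 without replicate 1 of NCI-H1581 and 0.84 without replicate 2. The adjusted p of these 9 genes ranged from 1.27e-06 for ATF3 to 0.0129 for DDIT4 (edgeR).

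Between the resistant variants, 4 of the 10 were higher in NCI-H1703R than in NCI-H1581R, 5 were lower and ATF4 did not pass, against 25.9% of all genes higher and 26.7% lower. This comparison uses the resistant libraries of the tests within each line again, so its values are not independent of them. PPP1R15A was 3.71-fold, DDIT4 2.52-fold, ATF3 2.05-fold and DDIT3 1.81-fold higher in NCI-H1703R. SESN2 was 2.65-fold, TRIB3 1.69-fold, CEBPB 1.52-fold and ATF5 1.41-fold lower, and CHAC1 was lower with a log2 difference of -0.59 (SE 0.15). ATF4 had a log2 difference of 0.03 (SE 0.17, adjusted p = 0.905, edgeR), with group means of 509 ± 39.4 CPM in NCI-H1581R and 508 ± 21.7 CPM in NCI-H1703R (SD, n = 2). In the fit blocked by replicate number, CHAC1 (adjusted p = 0.104, edgeR) and ATF5 (adjusted p = 0.195, edgeR) no longer passed. Here the block joined same-numbered replicates of different lines, whose deviations correlated with r = -0.286, so this pairing is doubtful. Leaving out either replicate of NCI-H1703R left 4 of the 10 called, with DDIT3, ATF5, CEBPB, TRIB3 and CHAC1 lost.

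Across the 4 groups, CHAC1 was ordered NCI-H1581R, NCI-H1703R, NCI-H1703 and NCI-H1581, with means of 103 ± 7.95, 67.1 ± 4.20, 41.7 ± 1.16 and 9.56 ± 0.283 CPM (SD, n = 2), and no neighbours in that order overlapped. SESN2 and TRIB3 shared another order, with NCI-H1581R first, then NCI-H1581, NCI-H1703R and NCI-H1703. DDIT3 was highest in NCI-H1703R (60.2 ± 6.29 CPM) and lowest in NCI-H1581 (14.3 ± 2.86 CPM), and its levels in NCI-H1581R (25.7 and 42.7 CPM) and NCI-H1703 (29.7 and 22.5 CPM) overlapped. The levels of PPP1R15A and DDIT4 followed the line, since for both genes all 4 libraries of the NCI-H1703 line stood above all 4 libraries of the NCI-H1581 line.

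**Figure D3:**
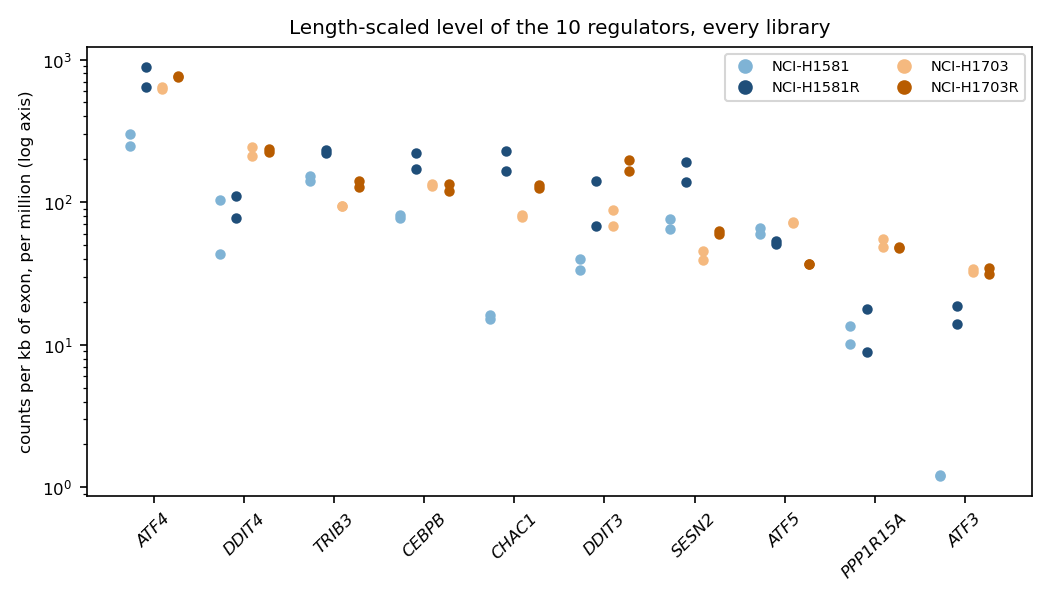
Length-scaled level of the 10 regulators (vertical axis, log scale, counts per kilobase of exon, scaled to the same sum in each library over genes with a length), ordered by their median over the 8 libraries (horizontal axis), with a point for each library in the colour of its group. ATF4 lies between 247 and 880 and above every other regulator, and ATF3 spans 1.20 to 34.5.

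To compare levels between genes, counts were divided by the exon length of each gene and scaled to the same sum in each library. On this scale ATF4 had the highest median over the 8 libraries, 641, and its lowest library (247) was above the highest library of any other regulator (244, for DDIT4). DDIT4 (160), TRIB3 (141), CEBPB (132) and CHAC1 (103) followed, and their ranges over libraries overlapped. DDIT3 (78.4), SESN2 (63.9) and ATF5 (56.5) came next, and PPP1R15A (32.7) and ATF3 (25.0) were lowest. With the longest transcript as the length, ATF4 and DDIT3 kept their rank and the other 8 moved by a single place. The RNA of CHAC1 rose from a mean of 15.7 ± 0.755 in NCI-H1581 to 197 ± 43.6 in NCI-H1581R on this scale (SD, n = 2). This scale does not use the TMM factors, so changes between variants and their spread differ from those in CPM. In CPM the CHAC1 means were 9.56 ± 0.283 and 103 ± 7.95 (SD, n = 2).

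The gene lists that follow were chosen with earlier results of these data known, and their counts stand beside these shares. Over all genes, 7.63% were called higher and 7.44% lower in NCI-H1581R, and 7.06% and 7.67% in NCI-H1703R. The shares called in both lines were 0.692% higher and 0.95% lower, and those of the interaction test 6.93% and 8.47%. The 26 genes of the ATF4 target list, which hold enzymes, amino acid transporters, tRNA synthetases and secreted factors, were read from the same tests. In NCI-H1581R 14 rose and 12 did not pass, with a median log2 fold change of 0.86 (0.80 with FGF21, which was at 0 counts in NCI-H1581, set to its bound against 3 counts per library). In NCI-H1703R 10 rose, SLC38A2 fell and 15 did not pass, with a median of 0.43. The 7 genes called higher in both lines were ASNS, PHGDH, PSAT1, PCK2, SLC7A11, XPOT and GARS1. ASNS, asparagine synthetase, rose by 1.64 (SE 0.20) in NCI-H1581R and by 0.43 (SE 0.09) in NCI-H1703R on the log2 scale. SLC7A11, the cystine importer that feeds glutathione synthesis, rose by 1.10 (SE 0.20) and 1.37 (SE 0.11). PHGDH and PSAT1, enzymes of serine synthesis, changed by 1.73 and 1.42 in NCI-H1581R, while NCI-H1703R had values of 0.46 and 0.55. PCK2, GARS1 and XPOT had 1.44, 0.87 and 0.75, and 0.92, 0.71 and 0.52. In the interaction test 8 of the 26 changed less and 1 changed more in NCI-H1703, the latter being GDF15, a secreted stress cytokine chosen for mention after its values were seen. GDF15 was at 3.38 and 2.06 CPM in NCI-H1703 and at 42.1 and 50.5 CPM in NCI-H1703R.

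None of the 17 genes for eIF2 kinases, eIF2 and eIF2B subunits and their regulators was called in NCI-H1581R with edgeR, 3 had an unadjusted p under 0.05, and DESeq2 called 3. EIF2S3 (0.56, adjusted p = 0.115, edgeR) and the kinase gene EIF2AK4, or GCN2 (0.50, adjusted p = 0.119, edgeR), had the smallest p. In NCI-H1703R 3 of the 17 rose, of which EIF2S2 (0.61, SE 0.09) and EIF2S3 (0.42, SE 0.10), subunits of eIF2, had the smallest p. The median log2 fold changes of this list were 0.08 and -0.03.

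Among 14 paralogs and bZIP partners of the members, JDP2, a bZIP repressor related to ATF3, rose in both lines, by 2.32 (SE 0.25) in NCI-H1581R and 0.70 (SE 0.12) in NCI-H1703R. TRIB1, a paralog of TRIB3, fell in both, with log2 fold changes of -2.50 (SE 0.18) and -1.17 (SE 0.25). TRIB1 was at 141 and 140 CPM in NCI-H1581 and at 27.2 and 22.3 CPM in NCI-H1581R. The TRIB3 values went the other way there, but did not pass the test. Over the list 2 rose, 2 fell and 10 did not pass in NCI-H1581R, and 3, 1 and 10 in NCI-H1703R, with medians of 0.02 and 0.09. DDIT4L, a paralog of DDIT4 named after its values were seen, was at 0.0297 and 0 CPM in NCI-H1581 and at 0.399 and 0.432 CPM in NCI-H1581R, so its call there rested on few counts. In the NCI-H1703 line it had at most 3 counts in every library, and without it the median over the other 13 genes was 0.17.

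Of 6 effectors assigned to DDIT3 in cell death and redox, TNFRSF10B, the death receptor DR5, had a log2 fold change of -1.25 (SE 0.17, adjusted p = 0.00566, edgeR) in NCI-H1581R and 0.52 (SE 0.10, adjusted p = 0.0339, edgeR) in NCI-H1703R. DDIT3 itself rose in both. BCL2, an inhibitor of apoptosis, fell in NCI-H1703R (adjusted p = 0.0226, edgeR), and BBC3 had 0.74 in NCI-H1581R (adjusted p = 0.159, edgeR). The remaining genes of this list did not pass in either line, and the list medians were -0.59 and 0.04. These medians mix a death receptor with an inhibitor of apoptosis, so they give no common direction for DDIT3 effectors. BCL2 was at no more than 0.375 CPM in the NCI-H1581 line, and its log2 fold change of -1.88 in NCI-H1581R did not pass.

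The 14 genes of the ATF6 and IRE1 branches, which answer misfolded protein in the endoplasmic reticulum in parallel to the eIF2 kinase PERK, differed from the ATF4 targets in NCI-H1581R. There 7 fell and 7 did not pass, with a median log2 fold change of -0.55. None rose with edgeR, while 1 had an unadjusted p under 0.05 in that direction and DESeq2 called 1. PDIA4 (-0.97, SE 0.16) and MANF (-0.93, SE 0.18) had the smallest p, and the chaperone gene HSPA5 (BiP), named after its values were seen, was at 967 and 841 CPM in NCI-H1581 and at 543 and 534 CPM in NCI-H1581R. In NCI-H1703R 5 rose, 1 fell and 8 did not pass, with a median of 0.20, and SEL1L (0.48, SE 0.08) and EDEM1 (0.47, SE 0.09), which serve the degradation of misfolded protein, had the smallest p. SDF2L1 fell in both lines (-0.84 and -0.41). The interaction test called 8 of the 14 higher in NCI-H1703 and none lower (0 also at an unadjusted p under 0.05 and with DESeq2).

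**Figure D4:**
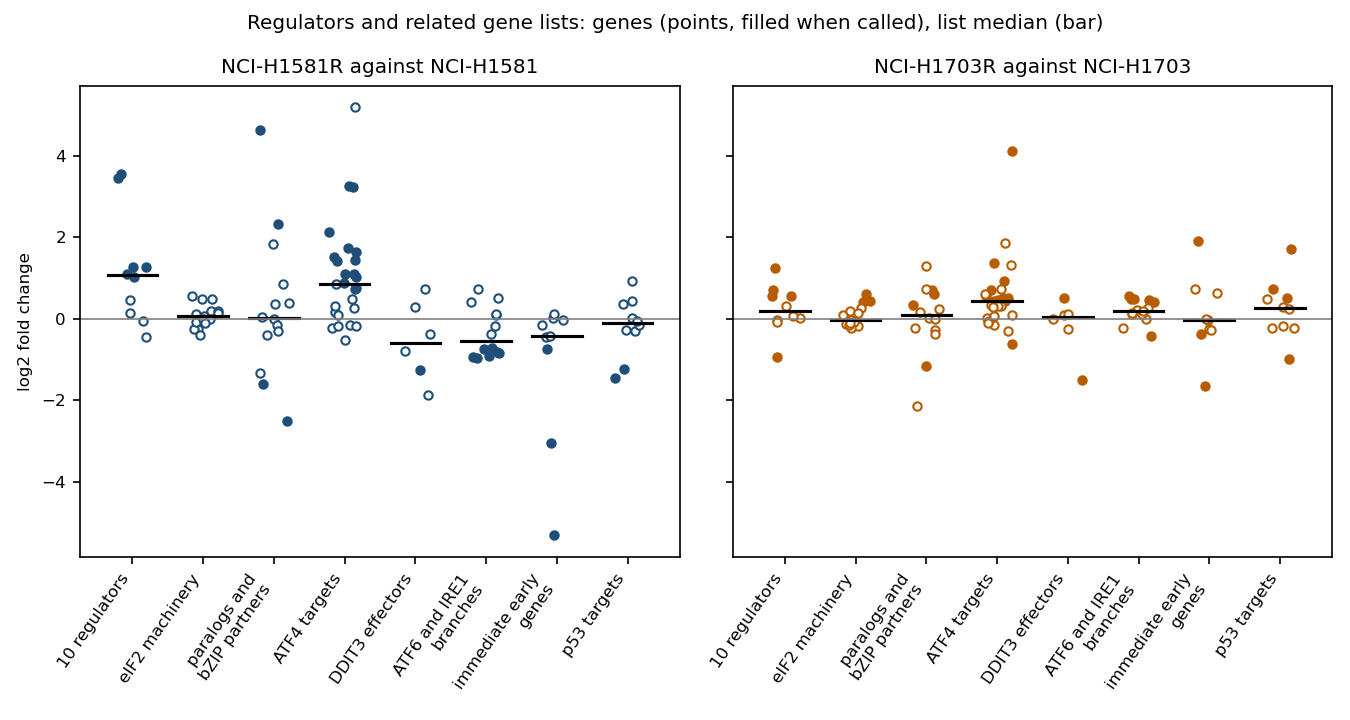
Log2 fold change, resistant against sensitive (vertical axis), of the 10 regulators and of the 7 gene lists (horizontal axis) in NCI-H1581R and NCI-H1703R. Each point is a gene, filled when its adjusted p was under 0.1, and bars are list medians, which for the regulators are 1.06 and 0.18, for the ATF4 targets 0.86 and 0.43, and for the ATF6 and IRE1 branches -0.55 and 0.20.

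ATF3 is also an immediate early gene and a p53 target, as SESN2 is a p53 target, so those lists were read beside them. Of 9 immediate early genes tested (IER3 was below the count filter), 3 fell and none rose in NCI-H1581R with edgeR (0 rose also at an unadjusted p under 0.05 and with DESeq2). EGR1 fell from 47.7 and 58.7 CPM to 1.57 and 1.09 CPM (log2 fold change -5.32, SE 0.28) and FOSL1 fell too (-3.05, SE 0.28). ATF3 rose there, and the part of immediate early or p53 control in its value was not tested. In NCI-H1703R 1 rose, 2 fell and 6 did not pass, with EGR1 at 1.90 (SE 0.19) and JUN at -1.65 (SE 0.16). Of 10 p53 targets, 2 fell and none rose in NCI-H1581R (1 rose at an unadjusted p under 0.05, and 0 with DESeq2), and 3 rose and 1 fell in NCI-H1703R. CDKN1A (p21) fell in both lines, by 1.46 (SE 0.28) and 0.98 (SE 0.15) on the log2 scale. FAS and TP53I3, named after their values were seen, had the smallest p of this list in NCI-H1703R and rose there. TP53I3 rose from 75.9 and 80.5 CPM to 122 and 131 CPM, and FAS from 3.76 and 3.59 CPM to at least 11.4 CPM. FAS fell in NCI-H1581R. SESN2 rose in both lines, and the part of p53 in its values was not tested. The medians of the immediate early genes were -0.43 and -0.04, and those of the p53 targets -0.11 and 0.27.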

How the data were processed

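RNA of 4 variants (2 replicates each) was sequenced, and per the labels the reads were processed with cutadapt and Salmon on GRCh38. The authors deposited an estimated count for each gene, summed from Salmon transcripts with tximport, in whole numbers and without normalisation (unit: expected count). Versions, annotation release and strand setting are not given in the sources used here. Of the 37441 genes, 15136 had 0 counts in every library.

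Samples were grouped by the cell line and variant in the labels. Genes with at least 10 counts over the 8 libraries were tested with edgeR 4.0.16 (TMM, quasi-likelihood F test with glmQLFit and legacy=FALSE, two-sided, Benjamini-Hochberg over 18203 genes) in R 4.3.3, on the 4 libraries of a comparison, or on all 8 for the interaction. The SE was the log2 fold change divided by the square root of F. The code was tested on simulated data. Printed CPM values used a single TMM scaling over the 8 libraries, so ratios of CPM can differ slightly from fitted folds. Lengths, positions and overlaps came from GENCODE v44, and promoters from RefSeq (GRCh38.p14). A symbol and a length were found for 17177 kept genes, which held 97.767% of the counts.

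The members and gene lists were chosen with earlier results of these data known. All 10 members are named with every library's value. Of each list, genes called in the same direction in both lines are named or, failing that, the 2 with the smallest p in each line. For the ATF6 and IRE1 list both kinds are named. Other genes named outside this rule are SLC38A2, FGF21, IER3 and those marked as named after their values were seen. The 3 genes nearest to each member are named too. The alternatives were DESeq2 1.42.0, RLE normalization, no count filter, at least 10 counts in every library, the replicate number as a block, an adjusted p under 0.05, all 8 libraries in 1 fit and leaving out each library. Legacy quasi-dispersions were added after seeing the data.

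Per the growth protocol, the whole culture was repeated for the second replicate, so the number was taken to pair the variants of a line. The deviations of same-numbered replicates correlated across 12102 genes with r = 0.0484 between the NCI-H1581 variants and 0.167 between those of NCI-H1703. With 2 replicates, p-values measure only the spread between these cultures of 1 population each. Depth was 33800389 to 40031710 counts, and 3 counts was the floor.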

Additional observations from a re-analysis of the deposited data

Results flagged for a closer look

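For 4 regulators the change with resistance differed between the 2 lines by the interaction test on all 8 libraries (edgeR), always in the direction of a smaller change in NCI-H1703. On the log2 scale, the change in NCI-H1703 minus that in NCI-H1581 was -3.55 for ATF3 (adjusted p = 8.31e-05), -2.75 for CHAC1 (adjusted p = 6.22e-05), -1.15 for CEBPB (adjusted p = 0.00626) and -0.99 for ATF4 (adjusted p = 0.00947). All 4 stayed called when any single library was left out, with ranges of -3.65 to -3.45, -2.83 to -2.67, -1.26 to -1.04 and -1.07 to -0.91. The level of each gene in the sensitive lines differed in the opposite sense, since all 4 were lower in NCI-H1581 than in NCI-H1703, and both values use the same sensitive libraries.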

How the results depend on the processing

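Outside the fits that left out a library, 376 of the values kept their direction and side of the threshold, 6 became called, 5 lost a call and 3 reversed, and the cause was not tested. The reversed values lay near 0. They were ATF3 in NCI-H1703R (-0.0106 with all 8 libraries in 1 fit) and ATF4 between the resistant variants (-0.00310 with at least 10 counts in every library, -0.00424 with all 8 libraries in 1 fit). Over all genes, an adjusted p under 0.05 called 1793 genes in NCI-H1581R and 1640 in NCI-H1703R, and all 8 libraries in 1 fit called 4539 and 1730. The replicate block called 6357 genes in NCI-H1703R and changed no call of a member other than those given for ATF4, ATF5 and CHAC1. With the longest transcript as length, 2 of 10 members kept their rank.

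Leaving out each library in turn gave 1122 to 5186 calls over all genes and 2 to 7 members called in NCI-H1581R, 274 to 1686 and 0 to 5 in NCI-H1703R, 6120 to 10361 and 4 to 9 between the resistant variants, and 1571 to 4141 calls in the interaction test. The log2 values that reversed then ranged from -0.47 to 0.27 for PPP1R15A and -0.42 to 0.97 for DDIT4 in NCI-H1581R. In NCI-H1703R they ranged from -0.0833 to 0.12 for ATF3, -0.0390 to 0.17 for DDIT4 and -0.15 to 0.0840 for CEBPB. Between lines they ranged from -0.16 to 0.13 for ATF5 (sensitive) and -0.11 to 0.11 for ATF4 (resistant). In the interaction test they ranged from -0.38 to 0.35 for DDIT3, -0.37 to 0.33 for PPP1R15A, -0.96 to 0.46 for DDIT4 and -0.0834 to 0.27 for TRIB3. Without scaling factors the median of all genes in NCI-H1581R was 0.11 on the log2 scale in place of 0.04.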

Other observations

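The genes with the pattern most like each regulator over the 8 libraries were found by Euclidean distance between log2 CPM values centred on each gene's mean, among 11173 genes of at least 5 CPM on average. For the transcription factors, the 3 nearest were DLGAP3, RABGAP1L and RB1CC1 for ATF4, ANKRD6, DLG3 and LPIN1 for DDIT3, ARL15, FBN1 and TTLL7 for ATF3, ETFB, IER5 and MBOAT7 for ATF5, and ZNF503, BTRC and ZNF268 for CEBPB. For the effectors they were LRRC28, TDRP and ARL3 for TRIB3, CGAS, RNF215 and SBNO2 for PPP1R15A, ADARB1, DDR1 and PHC1P1 for DDIT4, LCA5, FAM117A and ARMC9 for SESN2, and MEIOC, NLRP1 and SH3BGRL for CHAC1. The distances ran from 0.238 (ETFB to ATF5) to 0.966 (SH3BGRL to CHAC1). Of these 30 genes, 0 were members and 0 were in the gene lists. With 8 libraries in 4 groups, likeness of pattern is a description of the group levels.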
